A study of Mus musculus with 18 samples.

Results

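The Pim kinases are a family of 3 genes, Pim1, Pim2 and Pim3, and all 3 were taken by gene name from allele-specific read count tables of splenic B cells. They are 3 of the 40327 genes in the tables for the 129 allele and 3 of the 39147 genes in the tables for the Cast allele. Pim2 lies on the X chromosome and Pim1 and Pim3 lie on autosomes, so the family sets an X-linked gene beside its closest relatives in the same cells. The family was chosen by the rise in read level of Pim2 after stimulation in these same samples, so that rise is given as a description with no test.

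PIM proteins are serine/threonine kinases that are active as soon as they are made. They need no activating phosphorylation, and their amount is set mainly by transcription, downstream of cytokine receptors through JAK and STAT proteins and downstream of antigen and Toll-like receptors through NF-kB, and then by how long the RNA and protein last. In lymphocytes they favour survival, protein synthesis and entry into the cell cycle, and Pim1 and Pim2 are known as partners of Myc in lymphoma. A female cell silences 1 of its X chromosomes through Xist RNA, and an X-linked gene is therefore read mostly from the active X unless it escapes silencing.

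The cells were CD23+ B cells from the spleens of female mice with the genotype F1 129S1/Cast; Xist+/-, that is, first-generation hybrids of the 129S1 and Cast strains with a heterozygous Xist mutation. In these mice the Cast X is always the inactive one, per the labels, so for Pim2 the 129 tables report the active X and the Cast tables the inactive X. The naive group was 3 untreated samples, and the CpG group was 3 samples stimulated in culture for 24 h with 1 µM CpG, an oligonucleotide ligand of Toll-like receptor 9. All 6 samples carried the Xist mutation, the age of the mice is not given in the labels, and 12 samples of another cross are not analysed here. Total RNA was sequenced, and the gene reads of a sample summed to between 1987266 and 2928236 on the 129 allele and between 2465073 and 3321753 on the Cast allele.

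The 9 B cell markers summed to between 14647 and 17121 CPM (a gene's reads scaled to a common library total) in naive samples and to between 3682 and 4727 CPM in CpG samples on the 129 allele. All 9 were lower in every CpG sample than in any naive sample. The share of all genes tested that were lower in this way is not given here. On this allele 27.0% of all genes tested were called lower by edgeR's quasi-likelihood test, which is a different count. How unusual 9 of 9 is was therefore not tested. The 12 macrophage markers summed to between 2346 and 5274 CPM in naive samples and to between 4.89 and 6.47 CPM in CpG samples, with Fcna and Cd163 at 0 in the CpG samples. T cell markers (44.9 to 58.7 CPM naive, 4.67 to 9.22 CPM with CpG) and neutrophil markers (5.40 to 18.1 CPM naive, 0 to 1.08 CPM with CpG) were lower, dendritic cell markers summed to 25.3 to 58.5 and 8.03 to 16.7 CPM, and plasma cell markers summed to 325 to 516 and 338 to 380 CPM. Of the 6 dendritic cell markers 1 was higher in every CpG sample than in any naive sample and 3 were lower. Of the 5 plasma cell markers 2 were higher and 2 lower in this way, so the sums hide opposite moves. Of all genes tested on this allele, 32.6% were higher in this way. Every contrast of CpG with naive below moves with these differences, and their part in the results was not tested. In bulk RNA, fewer cells of a type and less RNA per cell cannot be told apart.

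Pim1 lies at chr17:29490785-29496111, Pim2 at chrX:7878306-7883432 and Pim3 at chr15:88862194-88865726, all on the plus strand (GRCm38.p6). The promoter windows of the 3 genes are shown as a description. The window of Pim2 holds a motif that the windows of its relatives do not. Any link between this motif and the response to CpG was not tested. Each line holds 300 bases of the RefSeq promoter table, 250 before the start site and 50 from it on, 5′ to 3′. They are the letters of the reference assembly, not of the 129 or Cast strain. Capitals mark the octamer ATGCAAAT on either strand, the element bound by the octamer factors Oct-1 and Oct-2 in B cells.
Pim2, chrX:7878056-7878355, plus strand: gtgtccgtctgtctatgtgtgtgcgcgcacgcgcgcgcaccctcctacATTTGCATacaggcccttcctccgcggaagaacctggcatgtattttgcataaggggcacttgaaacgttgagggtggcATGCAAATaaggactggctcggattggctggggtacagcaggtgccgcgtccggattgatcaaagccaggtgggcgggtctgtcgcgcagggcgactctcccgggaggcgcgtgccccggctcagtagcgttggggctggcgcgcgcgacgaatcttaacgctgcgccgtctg
Pim1, chr17:29490535-29490834, plus strand: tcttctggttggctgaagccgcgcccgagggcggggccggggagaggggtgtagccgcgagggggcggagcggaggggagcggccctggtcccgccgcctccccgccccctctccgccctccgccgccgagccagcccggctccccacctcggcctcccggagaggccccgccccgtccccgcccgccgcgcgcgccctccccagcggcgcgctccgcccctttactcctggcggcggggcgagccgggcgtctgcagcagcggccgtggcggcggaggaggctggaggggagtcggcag
Pim3, chr15:88861944-88862243, plus strand: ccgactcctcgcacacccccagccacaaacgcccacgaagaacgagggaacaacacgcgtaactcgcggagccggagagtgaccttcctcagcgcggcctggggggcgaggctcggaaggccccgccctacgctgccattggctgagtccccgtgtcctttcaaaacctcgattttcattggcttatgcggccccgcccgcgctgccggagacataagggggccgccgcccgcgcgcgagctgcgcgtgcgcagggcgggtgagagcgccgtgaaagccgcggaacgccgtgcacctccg

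The Pim2 window held 2 octamers, whose first bases lay at -202 and -123 from the start site, and the windows of Pim1 and Pim3 held none. Of 32851 mouse promoter windows of this length, 1.74% held at least 1 octamer and 0.107% held 2 or more. All 3 windows were rich in CpG dinucleotides, with 42 in Pim1, 31 in Pim2 and 40 in Pim3 against a median of 7. A second Pim1 start site, at chr17:29492835-29493134, had 5 CpG dinucleotides and the E-box CACGTG at -58, a motif found in 7.15% of all windows. None of the windows held the STAT palindrome TTCNNNGAA (8.30% of all windows), the CRE TGACGTCA (1.79%) or the NF-kB consensus (4.51%) on either strand. That says only that these letters are not in these windows. The motifs were chosen with the sequences in view, no motif overlapped another, and a match is not evidence of binding.

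Pim2 rose on both X chromosomes. On the active X, read from the 129 tables, the 3 naive samples had 28, 33 and 33 Pim2 reads, or 12.0, 13.7 and 16.5 CPM. The 3 CpG samples had 1074, 1005 and 1273 reads, or 386, 356 and 444 CPM. Every CpG sample was far above every naive sample. The mean went from 14.1 ± 2.28 to 396 ± 44.8 CPM (SD, n = 3 each), a fitted rise of 28.1-fold with a 95% interval of 22.2 to 35.4 (log2 4.81, SE 0.17). By size of the rise this was place 104 of 10581 genes tested and place 5 of the 316 X-linked genes among them.

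On the inactive X, read from the Cast tables, Pim2 was close to the limit of counting before stimulation, with 6, 5 and 5 reads in the naive samples (2.26, 1.80 and 2.15 CPM). After CpG it had 262, 272 and 261 reads (82.6, 83.9 and 77.2 CPM), and the groups were again far apart. The mean went from 2.07 ± 0.238 to 81.2 ± 3.52 CPM, a fitted rise of 38.6-fold with a 95% interval of 29.0 to 51.2 (log2 5.27, SE 0.21). This was place 60 of the 10365 genes tested on the Cast allele and the largest rise among the 96 X-linked genes tested there. The SE of this log2 rise was 0.42 in DESeq2 (log2 5.29) and 0.28 in edgeR without the low count filter (log2 5.34). With 16 naive Cast reads in all, the interval of the main fit is too narrow, since it understates counting error.

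For 67 X-linked genes there was a fit on both alleles, and Pim2 had the largest rise of them on each. The next on the inactive X were Pola1, a DNA polymerase subunit, with a log2 fold change of 3.52 (SE 0.50), and Rbbp7, a histone chaperone, with 2.88 (SE 0.44). Pola1 and Rbbp7 rose by 2.69 (SE 0.18) and 1.30 (SE 0.24) on the active X, on the same log2 scale. The place of Pim2 follows from the rise that picked the family and supports nothing further. Pim2 made up 0.125% ± 0.0238 of all Cast reads of X-linked genes other than Xist in naive samples and 3.23% ± 0.159 in CpG samples. On the active X its part went from 0.0514% ± 0.00877 to 1.38% ± 0.145.

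**Figure D1:**
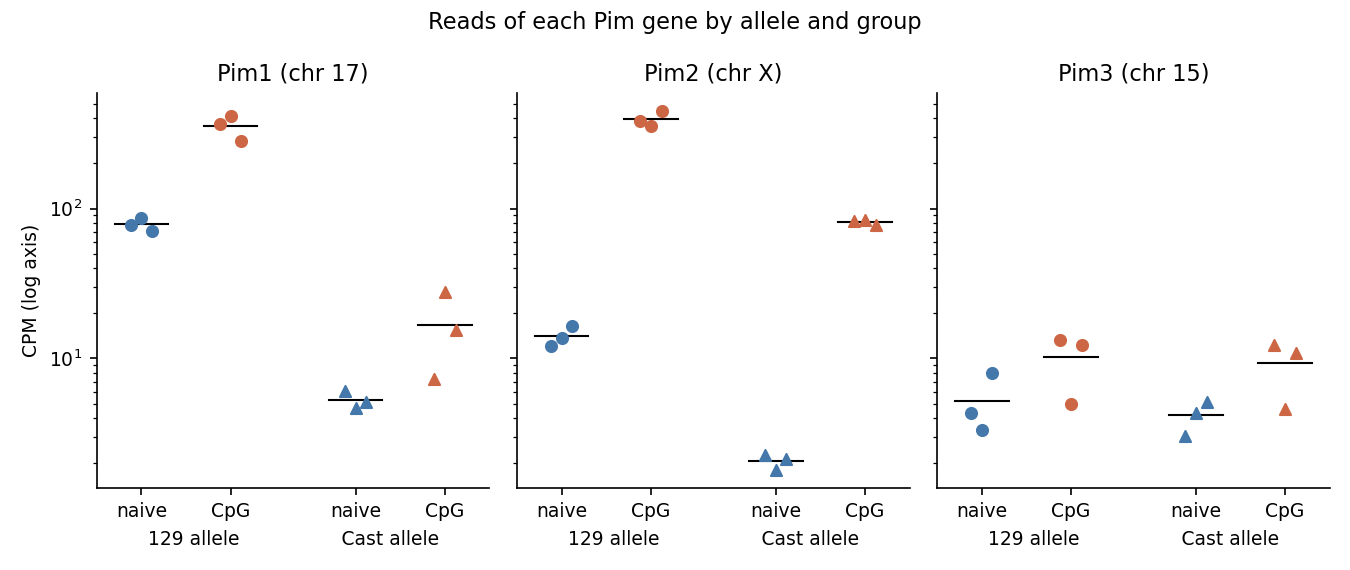
CPM (reads scaled to library size, log axis) of Pim1, Pim2 and Pim3 in each of the 3 naive (blue) and 3 CpG (orange) samples, with the 129 allele as circles, the Cast allele as triangles and group means as bars. For Pim2 the CpG samples lie far above the naive samples on both X chromosomes (386, 356 and 444 against 12.0 to 16.5 CPM on the 129 allele), while the groups of Pim3 overlap on both alleles.

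The authors' deposited table of 104 X-linked genes holds Pim2 and neither relative. In it the mean RPKM over both alleles goes from 6.04 to 176, the 2nd largest ratio of the 104 genes (29.1-fold). The mean SRPM of the inactive X, an allele-specific read rate, goes from 20.4 to 815 in the authors' deposited table. On the active X the authors' deposited table gives 141 and 3903. The authors' deposited ratio of inactive to active X is 0.144 in naive and 0.209 in stimulated cells, place 21 of 104 in each. These are means with no error, and they were made from the same reads as the values above.

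Pim1, the founding member of the family, had a smaller fitted fold than Pim2 and was already well counted in naive cells. On the 129 allele it had 181, 208 and 142 reads in naive samples (77.9, 86.4 and 71.2 CPM) and 1023, 1168 and 813 reads in CpG samples (368, 414 and 284 CPM), with no overlap. Of all genes tested on this allele, 32.6% had every CpG sample above every naive sample. The mean went from 78.5 ± 7.63 to 355 ± 66.0 CPM, a 4.52-fold rise (log2 2.18, SE 0.17, adjusted p = 4.60e-05 in edgeR's quasi-likelihood test). In that comparison 28.2% of all genes tested were called higher (55.2% in either direction), so a call of this kind is common after CpG, and by size Pim1 was at place 686 of 10581.

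Few Pim1 reads came from the Cast allele. There were 16, 13 and 12 in naive samples (6.03, 4.69 and 5.15 CPM) and 23, 90 and 52 in CpG samples (7.25, 27.8 and 15.4 CPM). The groups did not overlap, as for 33.7% of genes in this direction on the Cast allele, but CpG replicate 1 lay only just above the highest naive sample. The mean went from 5.29 ± 0.680 to 16.8 ± 10.3 CPM, a 3.16-fold rise (log2 1.66, SE 0.48, adjusted p = 0.0140 in edgeR, where 30.7% of all genes tested were called higher, 31.5% lower and 62.2% in either direction). It was 1.12 on the log2 scale without CpG replicate 2 and 2.04 without CpG replicate 1, with adjusted p in edgeR and DESeq2 between 4.11e-04 and 0.0473 over the 10 alternatives.

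Pim3 was counted with few reads on both alleles. On the 129 allele it had 10, 8 and 16 reads in naive samples (4.30, 3.32 and 8.02 CPM) and 37, 14 and 35 in CpG samples (13.3, 4.96 and 12.2 CPM). CpG replicates 1 and 3 were above all naive samples, and CpG replicate 2 lay within the naive range. The fitted fold was 1.96 (log2 0.97, SE 0.51), which did not pass (adjusted p = 0.143 in edgeR).

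The Cast allele of Pim3 had 8, 12 and 12 reads in naive samples (3.01, 4.33 and 5.15 CPM) and 39, 15 and 37 in CpG samples (12.3, 4.63 and 10.9 CPM), again with CpG replicate 2 inside the naive range. The fitted fold was 2.23 (log2 1.16, SE 0.45), which passed narrowly (adjusted p = 0.0469 in edgeR). It did not pass in DESeq2 (adjusted p = 0.0531) or in edgeR without CpG replicate 1 (0.148), CpG replicate 3 (0.122), naive replicate 1 (0.128), naive replicate 2 (0.0833) or naive replicate 3 (0.0607), and it was 0.00834 without CpG replicate 2. At this depth the response of Pim3 could not be told from the spread of the samples on the 129 allele.

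**Figure D2:**
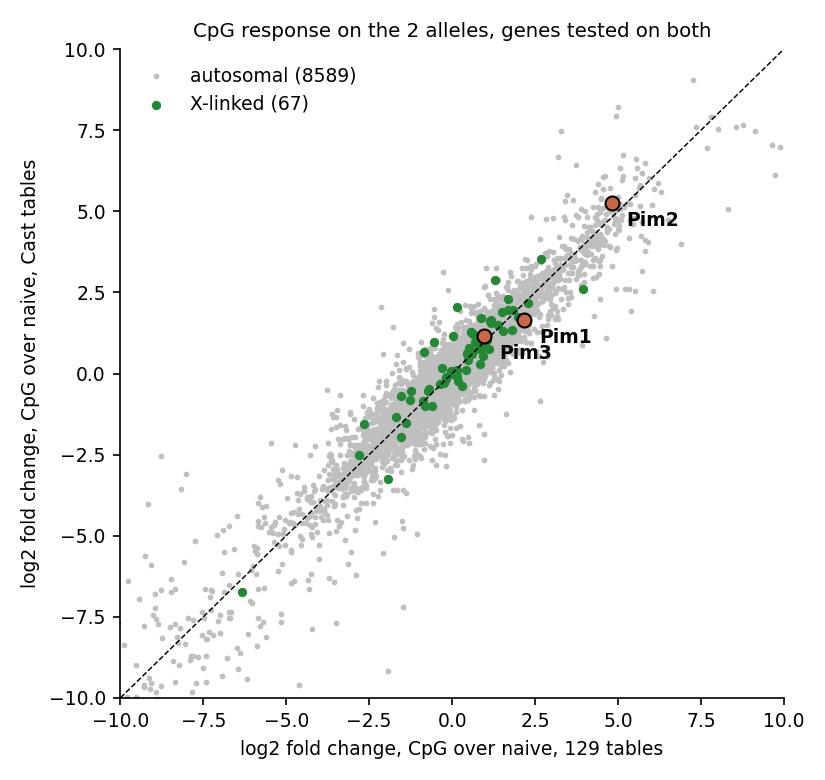
Log2 fold change of CpG over naive in the 129 tables (x axis) against the Cast tables (y axis) for 8589 autosomal genes (grey) and 67 X-linked genes (green), with the 3 Pim genes in orange and equal change as the dashed line; genes beyond ±10 are off the axes. Pim2 is at 4.81 and 5.27, apart from the other X-linked genes, and Pim1 (2.18 and 1.66) and Pim3 (0.97 and 1.16) lie within the autosomal cloud.

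The question the family allows is whether the inactive X followed the active X when Pim2 rose, and whether the 2 alleles of its autosomal relatives did the same. The measure is the Cast share, the Cast reads of a gene over its 129 and Cast reads together, which does not depend on how much the gene is expressed. In naive samples the median share was 52.1% over 8562 autosomal genes and 3.06% over 231 X-linked genes, each gene having 10 or more reads in all samples. Xist had a mean of 333 CPM in naive and 291 CPM in CpG samples on the 129 allele. On the Cast allele it had 2036 and 1904 CPM. Some Xist reads were thus counted on the active X, and the reason was not tested.

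The Cast share of Pim2 was 17.6%, 13.2% and 13.2% in naive samples and 19.6%, 21.3% and 17.0% in CpG samples. Naive replicate 1 was above CpG replicate 3, so the groups overlapped. Because the naive shares rest on 34, 38 and 38 reads, their 95% Wilson intervals were wide (8.35% to 33.5% for replicate 1 and 5.75% to 27.3% for replicates 2 and 3). In CpG samples, with 1336, 1277 and 1534 reads, they were 17.6% to 21.8%, 19.1% to 23.6% and 15.2% to 19.0%. The mean went from 14.7% ± 2.59 to 19.3% ± 2.16, a difference of 4.65 points (two-sided exact permutation p = 0.2, where 3 against 3 samples cannot go below 0.1). Within same-numbered samples the share was higher after CpG in 3 of 3 pairs (two-sided exact permutation p = 0.25 with the pairing, the smallest that 3 pairs allow).

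In the model of the allelic ratio, the Cast-to-129 ratio of Pim2 was 0.46 higher after CpG on the log2 scale (SE 0.36, 95% interval -0.26 to 1.17). That difference did not pass (adjusted p = 0.731 in edgeR), and 0.917% of all genes tested did. With the replicate number as a block the difference was 0.47 (SE 0.36, adjusted p = 0.594 in edgeR), and 779 of the 10364 genes tested passed. The interval includes no change of the ratio and also a ratio more than doubled, so the rises on the active and the inactive X were not distinguishable at the naive depth, which does not show that they were equal. Of the Pim2 reads added by CpG, 19.3% were from the inactive X.

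With 14.7% and 19.3%, Pim2 had the 21st and 20th highest Cast share of the 231 X-linked genes. Active X reads exceeded inactive X reads 5.77-fold in naive samples (log2 Cast over 129 -2.53, SE 0.17, adjusted p = 4.61e-05 in edgeR) and 4.19-fold in CpG samples (log2 -2.07, SE 0.11, adjusted p = 1.52e-05). The naive SE is too small for 16 Cast and 94 129 reads in all, since it understates counting error. With the replicate number as a block it was 0.32, and the call held. Of 275 X-linked genes tested, 90.2% were lower on Cast in naive and 90.9% in CpG samples, so this call sets Pim2 with nearly all X-linked genes while its share is above that of most of them. Shares were also taken for 7 of 10 genes listed as constitutive escapers, without Xist, Kdm6a and Mid1. Of these, 1 had a lower mean share than Pim2 in both groups, the RNA helicase gene Ddx3x (7.73% ± 1.01 naive and 7.60% ± 1.30 with CpG). The noncoding genes Ftx (9.28% ± 4.66 and 22.0% ± 3.88) and Jpx (11.1% ± 3.93 and 31.5% ± 0.990) were below Pim2 in naive and above it in CpG samples. The other 4 were above Pim2 in both groups: Eif2s3x (27.7% ± 0.864 and 36.8% ± 0.937), Kdm5c (35.4% ± 2.14 and 37.5% ± 1.91), Pbdc1 (20.8% ± 1.36 and 26.8% ± 2.25) and 5530601H04Rik (25.3% ± 9.10 and 43.8% ± 1.81). The mean share was thus higher after CpG for Pim2 and for 6 of these 7 genes, with no test of these differences in shares. Over the 231 X-linked genes the median share was 3.06% in naive and 3.04% in CpG samples.

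Autosomal Pim1 had a lower Cast share than X-linked Pim2. In naive samples it was 8.12%, 5.88% and 7.79%, and in CpG samples 2.20%, 7.15% and 6.01%. In each of the 6 samples the Pim1 share was below the Pim2 share of the same sample. CpG replicate 1 was the lowest, with a 95% Wilson interval of 1.47% to 3.28% that lies below those of CpG replicates 2 (5.86% to 8.71%) and 3 (4.61% to 7.80%). The mean went from 7.27% ± 1.21 to 5.12% ± 2.59 (difference -2.14 points, two-sided exact permutation p = 0.3).

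Over all genes, 26.6% differed between alleles in naive and 26.7% in CpG samples. For Pim1, 129 reads exceeded Cast reads 12.8-fold in naive samples (log2 -3.68, SE 0.39, adjusted p = 0.00106 in edgeR) and 19.8-fold in CpG samples (log2 -4.31, SE 0.36, adjusted p = 3.62e-04). Of 10089 autosomal genes tested, 9.73% were lower on Cast in naive and 9.75% in CpG samples, and few were as low as Pim1. Only 58 of the 8562 autosomal genes had a lower mean Cast share in naive samples (0.677%) and 46 in CpG samples (0.537%), where the 5th percentile was 32.3% and 31.4%. The change of the Pim1 ratio with CpG was -0.63 on the log2 scale (SE 0.52, 95% interval -1.65 to 0.39, adjusted p = 0.793 in edgeR), and it was -0.15 without CpG replicate 1 and -0.99 without CpG replicate 2.

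The genes around Pim1 on chromosome 17 did not share its imbalance. The 10 nearest coding genes with 10 or more reads in all samples, 5 on each side from -538 to +725 kb, had mean Cast shares between 47.2% and 65.2% in naive samples and between 47.5% and 70.2% in CpG samples. The nearest on the left, Mtch1, had 54.5% ± 2.19 and 55.5% ± 1.33, and the nearest on the right, Tbc1d22b, had 56.5% ± 3.03 and 58.3% ± 3.30. Counts come from separate gene models of the 2 strains, and how a read was given to a strain is not given in the sources used here. A low Cast share of Pim1 RNA and a low recovery of Pim1 reads by the Cast gene model cannot be told apart in these tables.

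Pim3 was balanced. Its Cast share was 44.4%, 60.0% and 42.9% in naive samples and 51.3%, 51.7% and 51.4% in CpG samples, so the naive samples lay on both sides of the CpG samples. The naive values rest on 18, 20 and 28 reads, with 95% Wilson intervals as wide as 24.6% to 66.3%. The mean was 49.1% ± 9.47 and 51.5% ± 0.218 (difference 2.38 points, two-sided exact permutation p = 0.8). Cast over 129 was -0.07 on the log2 scale in naive samples (SE 0.35, adjusted p = 0.916 in edgeR) and 0.08 in CpG samples (SE 0.30, adjusted p = 0.871), and the ratio changed by 0.15 (SE 0.46, 95% interval -0.75 to 1.05, adjusted p = 1). The direction of these 3 small values turned when a sample was left out or the library size was changed. The 95% intervals of Cast over 129 were -0.75 to 0.62 in naive and -0.50 to 0.66 in CpG samples, so balance was not shown.

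Around Pim3 on chromosome 15, 9 of the 10 nearest coding genes had mean Cast shares between 32.2% and 70.7% in naive samples, and Ncaph2, a condensin subunit, had 97.4% ± 2.51. Only 2 of the 10 were below Pim3 in each group, Gramd4 and Ppp6r2. Of all autosomal genes, 35.1% were below it in naive and 46.9% in CpG samples.

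**Figure D3:**
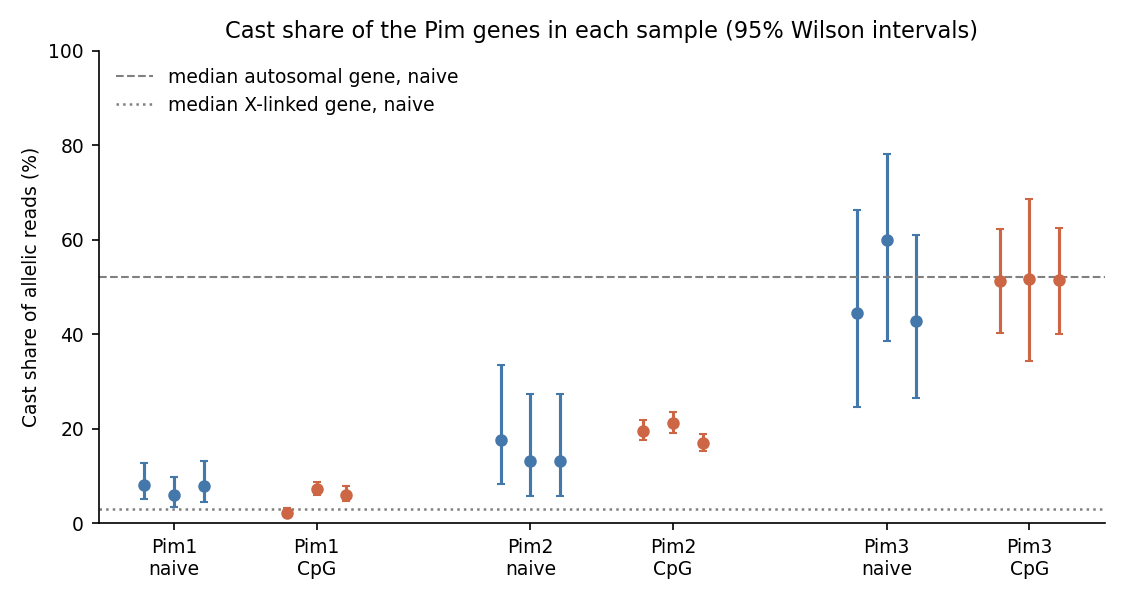
Cast share of Pim1, Pim2 and Pim3 in each naive (blue) and CpG (orange) sample, in percent of the reads of both alleles, with 95% Wilson intervals and the naive median of autosomal (dashed, 52.1%) and X-linked genes (dotted, 3.06%). X-linked Pim2 lies between 13.2% and 21.3%, autosomal Pim1 below it in each sample (2.20% to 8.12%), and Pim3 spans the autosomal median.

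Setting the members against each other within each sample removes anything a sample does to all Cast reads alike. The log2 Cast-to-129 ratio of Pim2 minus that of Pim1 was 1.33, 1.34 and 0.90 in naive samples and 3.41, 1.81 and 1.67 in CpG samples. Every CpG value was above every naive value, and the change of 1.10 gave the smallest two-sided exact permutation p that 3 against 3 samples allow (p = 0.1). With the pairing the exact permutation p was 0.25, the smallest that 3 pairs allow. The size of the change rests partly on CpG replicate 1, where Pim1 had 23 Cast reads, and it was 0.55 without it. With Pim3 in place of Pim1 the change was 0.25 (exact permutation p = 0.8), and the groups overlapped. The 2 comparisons share the Pim2 values and are not independent.

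Among all X-linked genes other than Xist, the Cast share of the summed reads was 6.60% ± 1.02 in naive and 9.23% ± 0.311 in CpG samples, 2.63 points higher (two-sided exact permutation p = 0.1, without the pairing). Without Pim2 it was 6.59% ± 1.02 and 9.07% ± 0.317, 2.47 points higher (exact permutation p = 0.1, also without the pairing). Leaving out Pim2 was added after its values were seen. These sums weigh each gene by its reads, and Rbm3 alone held 2540 Cast reads in naive and 7669 in CpG samples. The median share over 231 X-linked genes was 3.06% in naive and 3.04% in CpG samples, so the higher sum was not a rise of the typical X-linked gene.

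The genes around Pim2 were not high on the inactive X as a group. Within -724 to +307 kb of Pim2, 17 coding genes had 10 or more reads in all samples, 7 to the left and 10 to the right. The median of their shares was 3.95% before and 4.59% after stimulation, and 14 of the 17 in naive and 13 in CpG samples were under 10%. The direct neighbours, Otud5, a deubiquitinase gene (7.49% ± 3.17 and 7.06% ± 4.84), and Slc35a2, the UDP-galactose transporter gene (5.97% ± 1.57 and 4.88% ± 2.53), were below Pim2 in both groups.

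In each group 3 of these neighbours had a higher Cast share than Pim2. Rbm3, which encodes a cold-inducible RNA-binding protein, had 54.7% ± 2.91 and 66.1% ± 2.70, and Praf2 had 46.8% ± 8.69 and 43.9% ± 5.38. Clcn5, a chloride transporter gene, was above Pim2 in naive samples (15.1% ± 2.15) and Was, which encodes the Wiskott-Aldrich syndrome protein of blood cells, in CpG samples (19.4% ± 1.96, from 7.56% ± 1.73). Was gave the only call among the 17 in the test of the ratio (log2 1.55, adjusted p = 0.0334 in edgeR). With the replicate number as a block Rbm3 passed too (adjusted p = 1.64e-08, against 0.0625 without the block). The call of Was held in edgeR with separate library sizes (adjusted p = 0.0319), with 10 reads in every sample (0.0368) and with the block (5.19e-06). It held in DESeq2 too (adjusted p = 0.00472). The call was lost in edgeR without any 1 of the 6 samples (adjusted p 0.0587 to 0.147) and in a fit of X-linked genes alone (0.304). The Was share in CpG samples lay within 1 SD of that of Pim2.

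No neighbour rose as Pim2 did. On the active X 6 of the 17 were called higher and 5 lower, near the 28.2% and 27.0% of all genes tested, with a median log2 fold change of -0.24, and the largest, that of the histone methyltransferase gene Suv39h1, was 1.41 (SE 0.25, adjusted p = 0.00233 in edgeR). On the inactive X 6 neighbours had enough reads to be tested. Of these, Rbm3 (log2 1.27, SE 0.21), Was (0.97, SE 0.26) and Praf2 (0.83, SE 0.17) were called higher (30.7% of all genes tested there were) and none lower, against 5.27 for Pim2. Since 14 of the 17 had under 50 Cast reads over the 3 CpG samples, smaller changes on the inactive X were not detectable there.

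**Figure D4:**
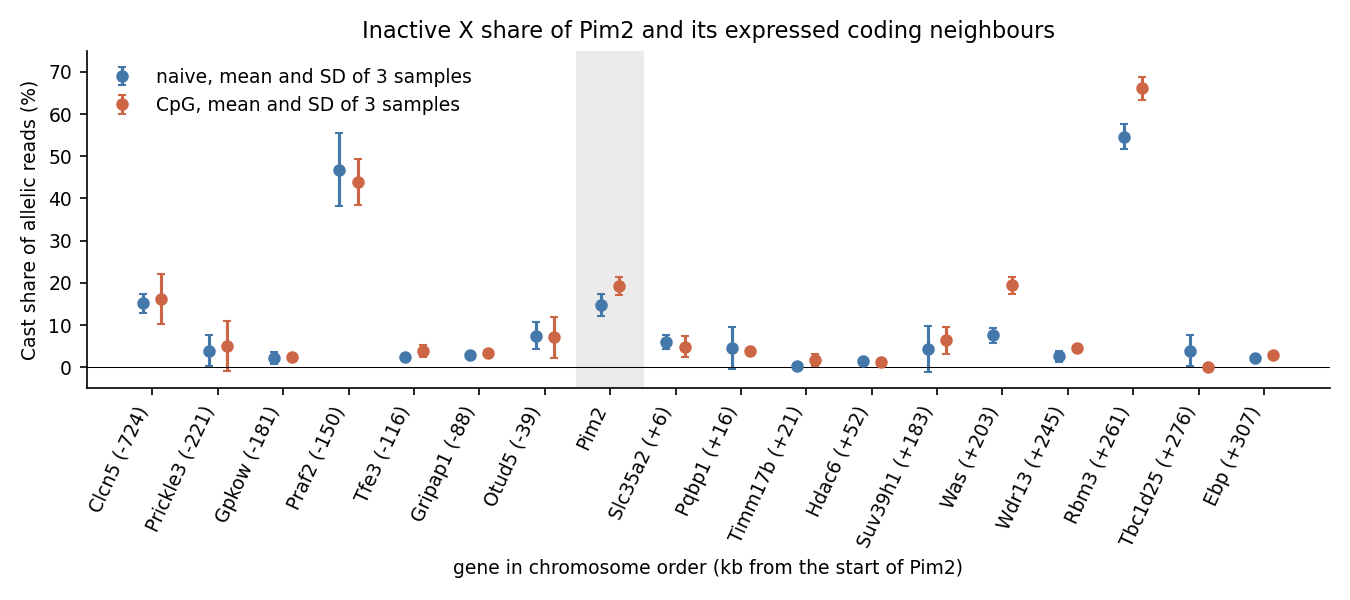
Cast (inactive X) share in percent of Pim2 (shaded) and 17 neighbouring coding genes in chromosome order, with the distance from the start of Pim2 in kb; points are means of 3 naive (blue) and 3 CpG (orange) samples and bars are SDs. Most neighbours lie under 10%, and Rbm3, Praf2, Clcn5 (naive) and Was (CpG) are at or above the 14.7% and 19.3% of Pim2.

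Genes of the PIM route were counted from fixed lists on the 129 allele, where CpG called 28.2% of genes higher and 27.0% lower. Of 14 JAKs and transcription factors known to induce Pim genes, none was called higher and 8 were called lower (median log2 fold change -0.88, against -0.01 over all genes tested). The NF-kB subunit genes Nfkb2 (log2 -1.45, SE 0.11) and Rel (-1.38, SE 0.14) fell, as did Stat6, the relay of interleukin-4 (-1.10, SE 0.11), with adjusted p of at most 1.43e-04 in edgeR. The main STATs of cytokine-driven Pim induction did not pass, with 0.20 (SE 0.16) for Stat3, 0.17 (SE 0.14) for Stat5a and -0.36 (SE 0.18) for Stat5b on the log2 scale. With the replicate number as a block 11 of the 14 were called lower. That fit called 6884 of all 10581 genes in either direction, 3507 of them higher. On the Cast allele none of the 14 was called higher and 10 were called lower, where 30.7% of all genes tested were called higher and 31.5% lower. RNA does not measure the activity of these factors.

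Of 18 known substrates of the kinases tested, 6 were called higher and 6 lower (median log2 fold change -0.11), near the 28.2% and 27.0% of all genes. The counts were 6 and 6 of 17 on the Cast allele, near its 30.7% and 31.5%. These counts therefore show nothing particular to the substrates. The cell cycle phosphatase Cdc25a rose from 43.0 ± 4.99 to 289 ± 29.9 CPM (log2 2.75, SE 0.15, adjusted p = 1.65e-05 in edgeR), and the heterochromatin protein gene Cbx3 from 136 ± 6.73 to 524 ± 21.2 CPM (1.94, SE 0.10, adjusted p = 1.65e-05). The transcription factor genes Foxo3 (-1.44, SE 0.12, adjusted p = 5.51e-05) and Nfatc1 (-1.82, SE 0.16, adjusted p = 7.43e-05) fell. Outside the naming rule, and picked after their values were seen, the translation repressor Eif4ebp1 (2.29, SE 0.27) and the death promoter Bad (1.10, SE 0.30) rose and the cell cycle inhibitor Cdkn1b fell (-1.35, SE 0.34). Myc, whose protein PIM kinases stabilise, did not pass (-0.23, SE 0.29).

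Genes that set how long PIM proteins last were called higher in 4 of the 4 tested, with 2 of the 6 listed not tested on this allele (median log2 fold change 0.87). Of all genes tested on this allele, 28.2% were called higher. How unusual 4 of 4 is was not tested. The chaperone Hsp90ab1 rose from 1635 ± 227 to 7190.3 ± 452 CPM (log2 2.14, SE 0.14, adjusted p = 2.57e-05 in edgeR) and its kinase co-chaperone Cdc37 from 68.1 ± 11.3 to 144 ± 13.5 CPM (1.08, SE 0.16). HSP90 and Cdc37 protect PIM proteins from degradation. Ppp2ca (0.65, SE 0.11) and Ppp2r1a (0.65, SE 0.23), subunits of the phosphatase PP2A that promotes PIM turnover, rose as well, so genes for both protection and turnover were higher. On the Cast allele 5 of 6 were called higher, where 30.7% of all genes tested were.

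The AKT and mTOR route, which acts in parallel with the PIM kinases on many of the same substrates, had 1 gene called higher and 4 lower of 12 tested (median log2 fold change -0.12). Of all genes tested on this allele, 28.2% were called higher and 27.0% lower. With the replicate number as a block the route had 3 higher and 4 lower. On the Cast allele it had 2 higher and 5 lower of 11 without the block and 4 higher with it. Without the block, 30.7% of all genes tested there were called higher and 31.5% lower. Over all genes the block called 6884 of 10581 on the 129 allele, 3507 of them higher. On the Cast allele it called 6868 of 10365, 3412 of them higher. Akt1 rose (1.38, SE 0.13, adjusted p = 9.36e-05 in edgeR), and the related kinase gene Sgk1 fell (-3.40, SE 0.51, adjusted p = 0.00105).

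**Figure D5:**
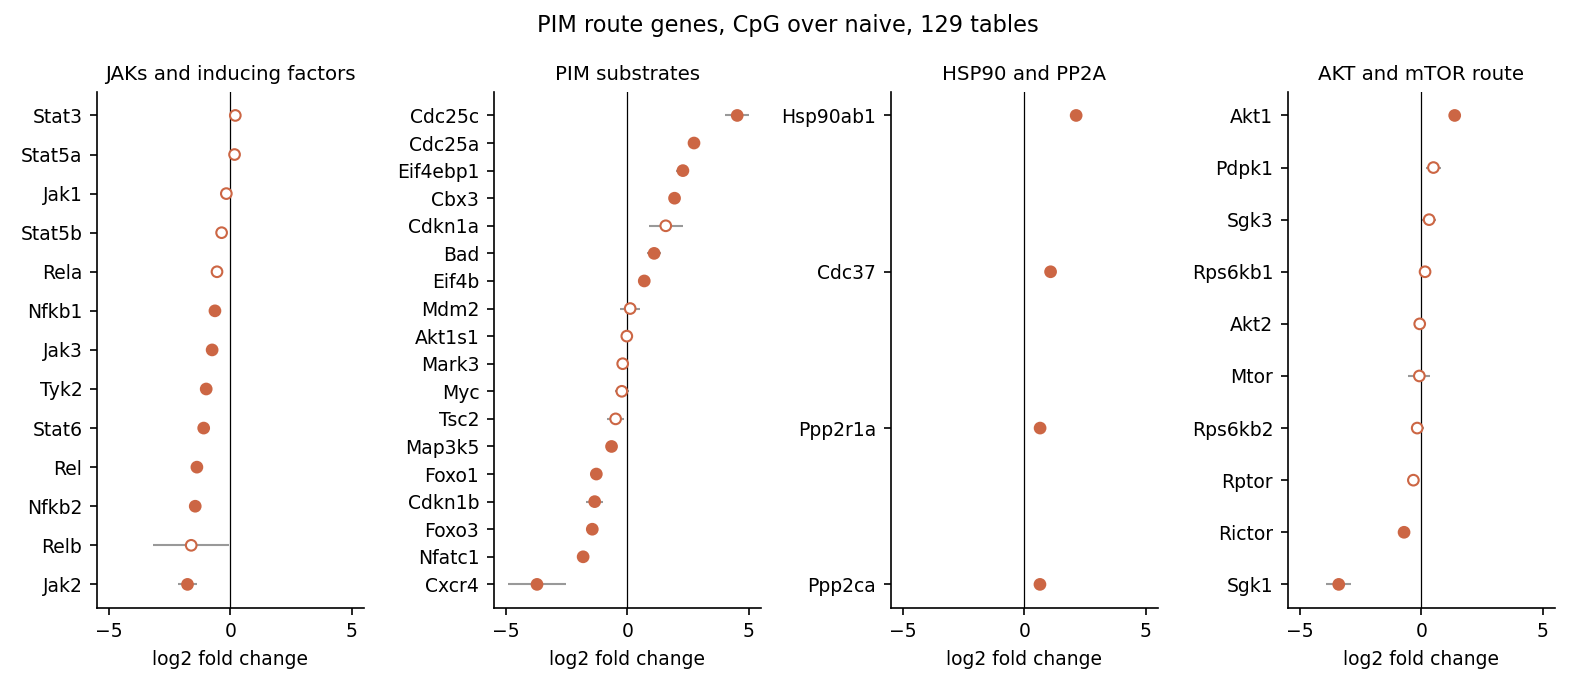
Log2 fold change of CpG over naive with its SE in the 129 tables for genes of the 4 PIM route lists; filled points passed an adjusted p of 0.05 in edgeR and open points did not. None of the JAKs and inducing factors drawn passed as higher, the substrates split 6 higher and 6 lower, and all 4 stability genes tested were higher. Of all genes tested, 28.2% were called higher and 27.0% lower.

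The genes whose 129 profiles lay closest to each member, by the distance of centred log2 CPM over the 6 samples among 10581 genes, differed between members. For Pim1 they were Tbc1d7 (0.27), Ska2 (0.27), Mrpl45 (0.30), Tars (0.33) and Rnaseh2b (0.33). For Pim2 they were a gene with no name in the files (MGP_129S1SvImJ_G0036407 on chromosome 16, 0.32), the actin regulator gene Enah (0.45), the DNA repair gene Rad54l (0.50), the mitotic kinase gene Pbk (0.52) and the centromere gene Cenpm (0.53), none of them X-linked. For Pim3 the nearest with an established name was Bcl2l11 (0.57), which encodes the death promoter Bim, after Gm43463 (0.37), Gm24276 (0.50), Mir703 (0.51) and an unnamed gene (0.56). A short distance, taken on log2 CPM with a prior count of 2, did not always go with a like fitted fold change. The unnamed gene and Enah had fitted log2 fold changes of 5.87 and 8.77, against 4.81 for Pim2.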

How the data were processed

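Total RNA libraries of 6 samples (3 naive, 3 CpG) were compared. The authors deposited 12 tables of whole-number counts per gene, 1 per sample and strain annotation, with no normalization. The submitters' processing notes name STAR, featureCounts, Subread 2.0.0 and mm10, without roles, and how reads were given to a strain is not given in the sources used here. Levels were not compared between genes. The row for reads in no gene, left out of all tests, held 48.1% to 67.1% of aligned reads in the 129 tables and 44.5% to 62.1% in the Cast tables. A further deposited table gives group mean RPKM, SRPM (a score, not spelled out there) and their ratio, per the file headers. For Pim2, SRPM could be recomputed from the counts.

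Counts were tested per strain with edgeR 4.0.16 in R 4.3.3 (quasi-likelihood test, TMM, filterByExpr, Benjamini-Hochberg over all genes tested, threshold 0.05). Allelic ratios were tested over 28374 matched genes with a term per sample, 1 library size for both alleles and at least 10 reads in at least 3 samples. Shares were compared by exact permutation. Alternatives were RLE factors, DESeq2 1.42.0, other filters and library sizes, a replicate block and leaving out each sample. The R code was tested on simulated data. Figures and sums used Python 3.11.15. Replicate numbers come from the sample titles. Same-numbered samples deviated together, with correlations of 0.443 to 0.608 (129) and 0.163 to 0.246 (Cast), so the numbers were taken to pair them, and the fit without the block is the one reported. The labels do not say that samples came from separate animals, so p-values measure only the spread between these samples. Intervals of shares cover counting error only, and intervals of log2 values are normal intervals from the SE.

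The members and gene lists were chosen with earlier results of these data known. Named genes were the 3 members, up to 4 genes per route list by smallest p on the 129 allele, the 5 profiles most like each member, and up to 10 expressed coding neighbours of Pim2 per side. Escape genes, autosomal neighbours and motifs were added later. Some genes that this rule names are not reported here and are not drawn, though the list counts include them. No protein sequences were used here.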

Additional observations from a re-analysis of the deposited data

How the results depend on the processing

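With the replicate number as a block, 779 genes passed the test of a changed Cast-to-129 ratio against 95 without it, and 4623 and 4740 against 2758 and 2771 differed between alleles in naive and CpG samples. No member changed its call under the block (adjusted p in edgeR for the ratio change 0.384 for Pim1, 0.594 for Pim2 and 0.943 for Pim3). Leaving out each sample gave 14 to 26 ratio changes, 1836 to 2615 naive and 1934 to 2573 CpG allele differences, DESeq2 gave 146 ratio changes, and a fit of X-linked genes alone gave 0. The counts for CpG against naive ranged from 5216 to 5477 (129) and 5987 to 6319 (Cast) without 1 sample. The small values of Pim3 turned sign. On the log2 scale its ratio change ranged from -0.0563 (without naive replicate 3) to 0.453, its naive allele difference from -0.370 to 0.140 (0.0439 without naive replicate 1), and its CpG allele difference was -0.0116 with separate library sizes, and its share change ranged from -0.746 to 7.83 points without 1 sample. Pim2 minus Pim3 ranged from -0.13 to 0.53, the lowest without naive replicate 2. The share change ranged from -3.16 to -0.683 points for Pim1 and from 3.66 to 6.15 for Pim2, and Pim2 minus Pim1 from 0.55 to 1.42. The causes were not tested. The 5 to 6 naive Cast reads of Pim2 per sample limit every statement on its ratio.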
